A study of Mus musculus with 16 samples.

Results

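The heat shock and unfolded protein response genes described here are a fixed list of 42 mouse genes for chaperones, co-chaperones and the sensors and transcription factors that control them. A gene was measured through probe sets annotated to its symbol alone, and the brightest of them by mean over all arrays stood for the gene. Of the 42 genes, 40 had such a probe set, out of 18193 genes in all. Of the 40, 38 reached a log2 intensity above 4 on at least 2 arrays and were tested, among 10916 genes tested. Hsp90ab1 and Hsf1 were not analysed here. Hspa2, which stayed just under the minimum on its highest array, and Hsf2, with a highest value of 2.46, did not reach that minimum. The tested genes were grouped by the compartment whose stress response they belong to. They comprised 15 of the cytosol and nucleus, 3 of mitochondria and 20 of the endoplasmic reticulum (ER). The ER genes include transcription factors of its response, such as Ddit3, Atf4 and Xbp1, which do not act in the ER itself.

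The study exposed albino BALB/c mice to light and measured RNA of the neural retina on 16 Affymetrix arrays. Wild-type mice (Nxnl1+/+) were compared with mice homozygous for loss of Nxnl1 (Nxnl1-/-), the gene of rod-derived cone viability factor. All mice were 11-16 weeks old, males and females in equal share, and raised in dim cyclic light of 50 lux. After dark adaptation for 16 h they received 1 h of cool white fluorescent light at 50, 2500 or 5000 lux, and retinas free of pigment epithelium were taken after 24 h in the dark. The 50 lux groups are therefore not unexposed: they had the same dark adaptation and 1 h at their rearing intensity. The doses of 50, 2500 and 5000 lux were represented by 2, 3 and 3 wild-type arrays and by 3, 3 and 2 knockout arrays. The labels call the arrays of a group biological replicates and do not say whether an array held RNA of 1 mouse or of a pool. Below, arrays are called by group and replicate number.

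Cells meet misfolded protein with separate programmes in each compartment. In the cytosol, heat shock factor 1 drives Hsp70 chaperones, their DnaJ and Bag partners and the small heat shock proteins. In the ER, the sensors PERK, IRE1 and ATF6 act through ATF4, XBP1 and cleaved ATF6 to raise chaperones such as BiP and, under lasting stress, the factor CHOP. In the retina these pathways have been studied mostly for misfolded rhodopsin in rods and for small heat shock proteins in glia and lens.

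The promoters of the listed genes hold motifs of these programmes. RefSeq promoter windows on GRCm38.p6, from 250 bases before to 50 bases after the transcription start, were held for 34 of the 42 genes. Promoters of Hspa8, Hsp90aa1, Hsp90ab1, Cryab, Hsf1, Hspa9, Manf and Atf6 were not analysed here. Each window was searched on both strands. The ER stress element, CCAAT followed by 9 bases of any kind and CCACG, was found in 0.119% of 32851 windows of this length and in those of 6 listed genes, all of the ER. Hsp90b1 held it at 2 places. The matches are shown because all of them lie in ER genes, with the fixed letters in capitals and each read 5′ to 3′ in the orientation of the motif.
Hspa5: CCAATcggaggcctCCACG
Hsp90b1, farther from the start: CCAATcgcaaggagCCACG
Hsp90b1, nearer the start: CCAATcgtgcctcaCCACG
Calr: CCAATgagggtcgaCCACG
Canx: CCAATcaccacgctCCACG
Creld2: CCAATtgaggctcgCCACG
Dnajc3: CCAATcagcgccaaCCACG
These matches lay between 212 bases before the start, in Hsp90b1, and 47 bases before it, in Hspa5. The 6 genes encode BiP, GRP94, calreticulin, calnexin, a secreted ER protein and a BiP co-chaperone. The element overlaps the CCAAT box, which is common: CCAAT was present in 37.4% of all windows and in 23 of the 34.

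The heat shock element is a run of inverted GAA units, and 2 facing units, GAANNTTC, were present in 7.86% of all windows. They were present in 10 listed genes, of which 8 were cytosolic (Bag3, Dnaja1, Hspa1a, Hspa1b, Hspb1, Hspb6, Hspb8 and Hsph1), 2 mitochondrial (Hspd1 and Hspe1) and 0 of the ER. The stricter form of 3 units, in which GAANNTTC is followed by NNGAA, was present in 0.603% of windows and in those of Hspd1, Hspe1 and Hsph1. The 3-unit matches are shown with the GAA and TTC units in capitals.
Hsph1: GAActTTCcaGAA
Hspd1, first orientation: GAAccTTCcgGAA
Hspd1, second orientation: GAAggTTCtaGAA
Hspd1 and Hspe1 lie head to head, their windows share 285 of 300 positions, and the Hspe1 matches are the same bases read from the other strand. Windows of Hspa1a and Hspa1b had the same base at 296 of 300 positions. The amino acid response element TTGCATCA, bound by ATF4 dimers, was present in 0.895% of windows and in 1 listed gene, Herpud1. A match describes these letters and not a bound site.

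Of the genes that changed with light, Hspa5 and Hspb6, which rose, were picked to show both kinds of promoter. Of the others with the 2 facing units, Bag3 rose, and Hspa1a and Hsph1 fell. Dnajb1, Ddit3 and Eif2ak3 rose and held neither element. The 250 bases before the start are given for Hspa5 and Hspb6, with the element in capitals.
Hspa5, chr2:34771840-34772089, plus strand: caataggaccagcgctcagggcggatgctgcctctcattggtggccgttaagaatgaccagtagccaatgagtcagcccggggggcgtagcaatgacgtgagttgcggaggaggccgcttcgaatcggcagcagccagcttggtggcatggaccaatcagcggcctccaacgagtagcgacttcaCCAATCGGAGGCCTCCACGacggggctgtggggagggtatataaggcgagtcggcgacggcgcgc
Hspb6, chr7:30553051-30553300, plus strand: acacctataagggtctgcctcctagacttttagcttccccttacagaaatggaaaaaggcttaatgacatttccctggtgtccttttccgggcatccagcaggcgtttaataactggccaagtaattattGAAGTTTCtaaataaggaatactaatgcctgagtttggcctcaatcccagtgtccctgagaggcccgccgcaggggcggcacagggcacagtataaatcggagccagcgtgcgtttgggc
The element of Hspa5 lies 65 to 47 bases before the start. That of Hspb6 lies 120 to 113 bases before the start, in the second of 2 windows held for the gene. In Bag3 the 2 facing units, GAAgtTTC, lie 43 to 50 bases after the start.

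Nxnl1 itself, read first as a check of the labels, was 5.64 to 7.61 on the log2 intensity scale in the 8 wild-type arrays and 2.21 to 2.92 in the 8 knockout arrays. Rod genes marked the tissue as retina on all arrays: the mean of 5 tested rod markers was 13.53 to 13.65 at 50 lux and 12.81 to 13.25 after brighter light. In whole retina, fewer cells of a type and less RNA per cell cannot be told apart. Lens transcripts set some arrays apart. The mean of 11 tested lens genes was below log2 4 on 10 arrays (2.54 to 3.70) and 5.86 to 12.25 on the other 6, namely wild type 5000 lux replicate 2, all 3 knockout arrays at 50 lux, and replicate 2 of the knockout at 2500 and at 5000 lux. This touches Cryab and Hspb1, which the lens expresses, and is given beside them.

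Light changed 10 of the 38 tested genes in at least 1 of the 4 light responses (2500 or 5000 against 50 lux in either genotype). A gene is called changed where limma's moderated test gave a Benjamini-Hochberg adjusted p under 0.05 over all 23320 probe sets tested. There were 17 such calls, 14 higher and 3 lower. In wild type at 2500 lux, 5 genes rose (13.2% of 38) and 0 fell, against 8.93% higher and 5.13% lower of all genes tested. In wild type at 5000 lux, 6 rose (15.8%) and 0 fell, against 7.56% and 5.27%. In the knockout at 2500 lux, 3 rose (7.89%) and 1 fell (2.63%), against 8.87% and 13.5%. In the knockout at 5000 lux, 0 rose and 2 fell (5.26%), against 4.6% and 7.81%; by limma 6 of the 38 had an unadjusted p under 0.05 there. The shares in the knockout lie below those of all genes, and the wild-type shares of higher genes rest on 5 and 6 genes. The 2 responses within a genotype share their 50 lux arrays. The wild-type counts depended on single control arrays: without wild type 50 lux replicate 1 the counts were 2 and 1, without replicate 2 they were 2 and 2, and without wild type 5000 lux replicate 3 the second was 3. Without knockout 50 lux replicate 1 the knockout count at 2500 lux was 7. The 2 calls of the knockout at 5000 lux fell to 0 or 1 when any of 15 of the 16 arrays was left out; without its own replicate 1 there were 3.

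**Figure D1:**
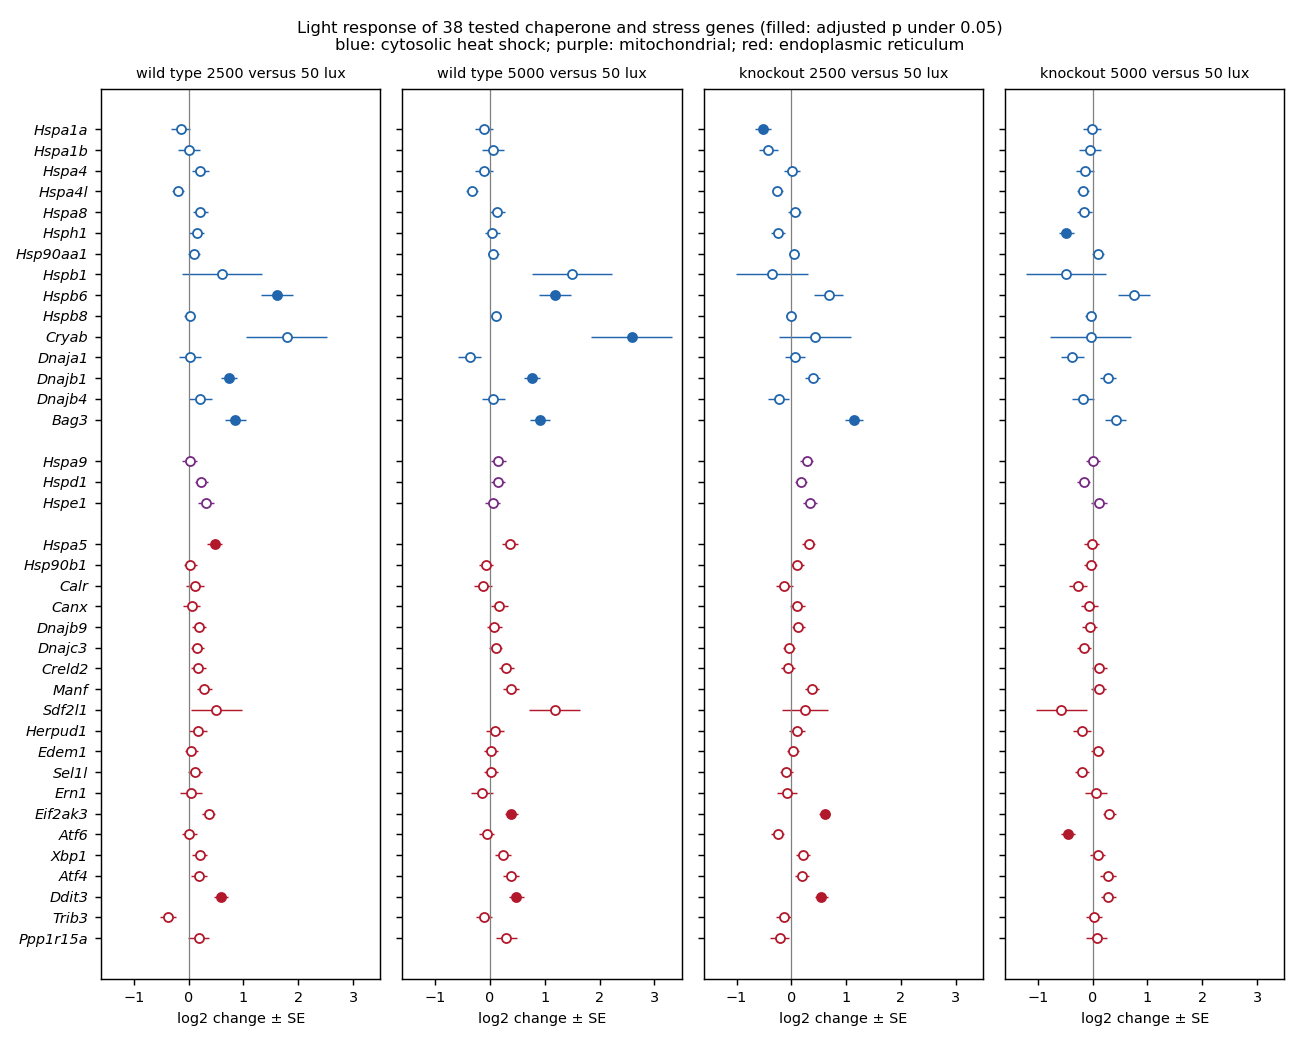
Log2 change ± SE of the 38 tested genes in the 4 light responses (horizontal axis, log2 of brighter over 50 lux), by compartment; filled points had an adjusted p under 0.05. Most genes sit close to 0, and the filled points above 0 are Hspb6, Bag3, Dnajb1, Cryab, Hspa5, Ddit3 and Eif2ak3.

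Set side by side, both cytosolic and ER genes were among those called. Of 15 cytosolic genes, 3 rose in wild type at 2500 lux (Hspb6, Bag3 and Dnajb1), 4 at 5000 lux (with Cryab), and 1 in the knockout at 2500 lux (Bag3), where 1 fell (Hspa1a); at 5000 lux in the knockout 1 fell (Hsph1). Of 20 ER genes, 2 rose in wild type at 2500 lux (Ddit3 and Hspa5), 2 at 5000 lux (Ddit3 and Eif2ak3) and 2 in the knockout at 2500 lux (Ddit3 and Eif2ak3); at 5000 lux in the knockout 1 fell (Atf6). None of the 3 mitochondrial genes was called. The median log2 change of the cytosolic genes was 0.21 and 0.06 in wild type at 2500 and 5000 lux and 0.01 and -0.04 in the knockout. The ER medians were 0.17 and 0.14 in wild type and 0.10 and 0.01 in the knockout. Over all genes tested the medians were 0.04 and 0.00 in wild type and -0.08 and -0.09 in the knockout. The change was above 0 in 13, 11, 8 and 4 of 15 cytosolic genes, in the order wild type at 2500 and 5000 lux and knockout at 2500 and 5000 lux, and in 19, 15, 12 and 10 of 20 ER genes, most of them not called.

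For each array, the deviation of each gene from its own 16-array mean was averaged over a compartment. The 2 wild-type arrays at 50 lux were the lowest of all 16 for cytosolic genes (-0.33 and -0.32) and for ER genes (-0.16 and -0.15). All other arrays lay between -0.15 and 0.36 for the cytosol and between -0.10 and 0.14 for the ER. Over all genes tested the same 2 arrays deviated by -0.03 and -0.11. The highest cytosolic value, 0.36 on wild type 5000 lux replicate 2, was -0.04 when Cryab and Hspb1 were left out, a choice made after seeing the data. Without those 2 genes the wild-type 50 lux arrays were still lowest, at -0.19 and -0.18, but no longer stood far apart. Knockout 5000 lux replicate 2 was then at -0.16 and wild type 5000 lux replicate 3 at -0.11. Knockout 5000 lux replicate 2 was low in all compartments, at -0.15 for the cytosol, -0.10 for the ER and -0.22 for mitochondria.

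**Figure D2:**
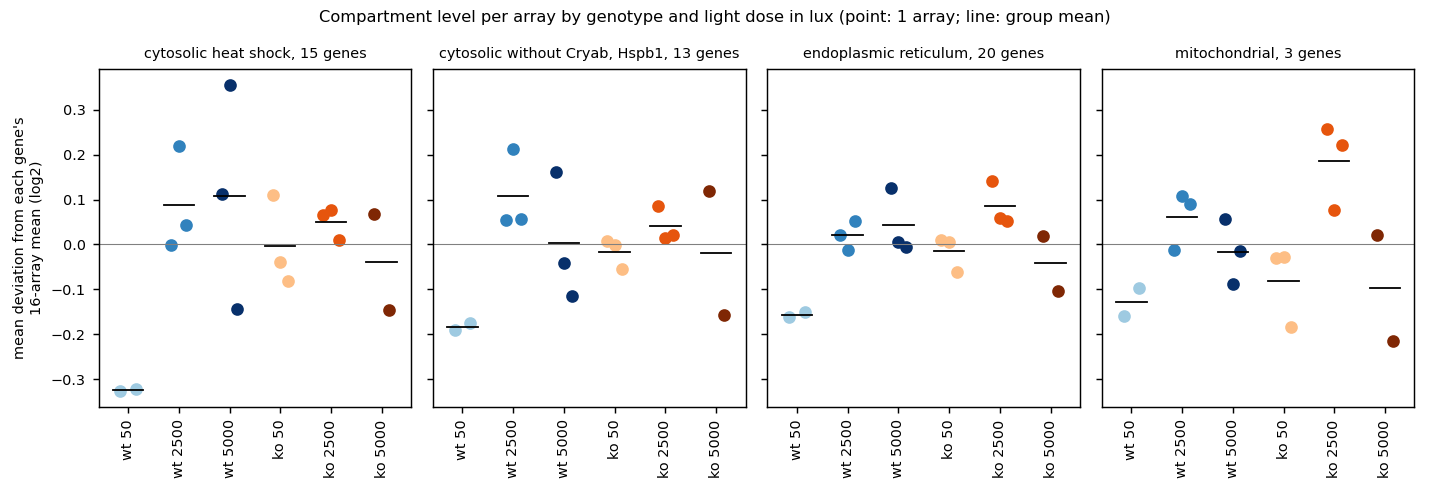
Mean deviation of each compartment's tested genes from their 16-array means (vertical axis, log2) for each array, by genotype and light dose in lux; points are arrays and lines group means. The 2 wild-type arrays at 50 lux sit lowest for cytosolic and ER genes, and the point at 0.36 falls to -0.04 without Cryab and Hspb1.

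Among the small heat shock proteins, which hold unfolding proteins until Hsp70 can refold them, Hspb6 (Hsp20) showed the clearest change. Its log2 intensity in wild type was 9.44 and 9.27 at 50 lux, 10.37, 11.16 and 11.37 at 2500 lux, and 10.49, 10.58 and 10.56 at 5000 lux. In the knockout it was 10.52, 9.97 and 9.88 at 50 lux, 10.36, 10.96 and 11.10 at 2500 lux, and 10.64 and 11.11 at 5000 lux. Every bright-light array of wild type lay above both controls, while in the knockout the groups at 50 and 2500 lux overlapped and those at 50 and 5000 lux did not. The wild-type rise was 1.61 ± 0.29 (SE) at 2500 lux, or 3.06-fold, with an adjusted p of 0.0029, and 1.19 ± 0.29 at 5000 lux with an adjusted p of 0.019. In the knockout the changes of 0.68 ± 0.26 and 0.76 ± 0.29 had adjusted p of 0.086 and 0.11. The difference between genotypes in the 2500 lux response was -0.93 ± 0.39 and did not pass (adjusted p = 0.53). The wild-type call at 2500 lux was kept whichever array was left out and was lost when only the arrays of the groups compared entered the fit (adjusted p = 0.052). That at 5000 lux was lost without wild type 50 lux replicate 1 (0.094) or replicate 2 (0.13) or wild type 5000 lux replicate 3 (0.055), and with no filter on dim probe sets (0.067).

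Cryab (alpha B-crystallin), a small heat shock protein of glia, muscle and lens, had the largest change and, in the fit, the largest standard error of the 38 genes. Wild-type values were 9.67 and 9.54 at 50 lux, 10.95, 11.68 and 11.57 at 2500 lux, and 11.09, 14.24 and 11.23 at 5000 lux. Knockout values were 12.26, 11.07 and 11.11 at 50 lux, 11.57, 12.64 and 11.53 at 2500 lux, and 11.13 and 11.77 at 5000 lux. All wild-type bright-light arrays lay above both controls, and in the knockout both bright-light groups overlapped their controls. The wild-type change was 1.79 ± 0.74 (SE) at 2500 lux (adjusted p = 0.15) and 2.58 ± 0.74 at 5000 lux (adjusted p = 0.041). The highest array, wild type 5000 lux replicate 2 at 14.24, was also the highest in lens genes, at 12.25; without it the change was 1.56 and the call held. The call was lost without either wild type 50 lux array (0.18 in both cases). It was also lost, at adjusted p from 0.051 to 0.055, without wild type 2500 lux replicate 2 or 3, knockout 50 lux replicate 2, or knockout 2500 lux replicate 1 or 3. With no filter on dim probe sets the adjusted p was 0.14, and with only the groups compared 0.21. On the 10 arrays with a lens gene mean below log2 4, Cryab was 9.54 to 9.67 on the 2 at 50 lux, both wild type. On the 8 at 2500 or 5000 lux, which were of both genotypes, Cryab was 10.95 to 11.68, with wild-type arrays at both ends. These arrays were not all free of lens transcripts: the lens gene Cryaa was 6.11 on knockout 2500 lux replicate 1. All 3 knockout arrays at 50 lux carried lens transcripts, so on arrays low in lens genes no knockout light response could be formed.

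Hspb1 (Hsp25), its close relative, was dim. It was 3.64 and 3.66 in wild type at 50 lux, 4.08, 4.63 and 4.08 at 2500 lux, and 4.24, 7.38 and 3.85 at 5000 lux. Knockout values were 5.07, 4.10 and 4.14, then 4.07, 4.08 and 4.08, then 4.08 and 3.82. The 7.38 belonged to the lens-rich wild-type array, and on arrays low in lens genes Hspb1 ranged from 3.64 to 4.63. The largest change, 1.50 ± 0.73 (SE) in wild type at 5000 lux, did not pass (adjusted p = 0.24). Values of some probe sets, not only dim ones, repeat exactly in the deposited table. The 4.08 of Hspb1 did so on 5 arrays and the 6.90 of Edem1 on 8.

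**Figure D3:**
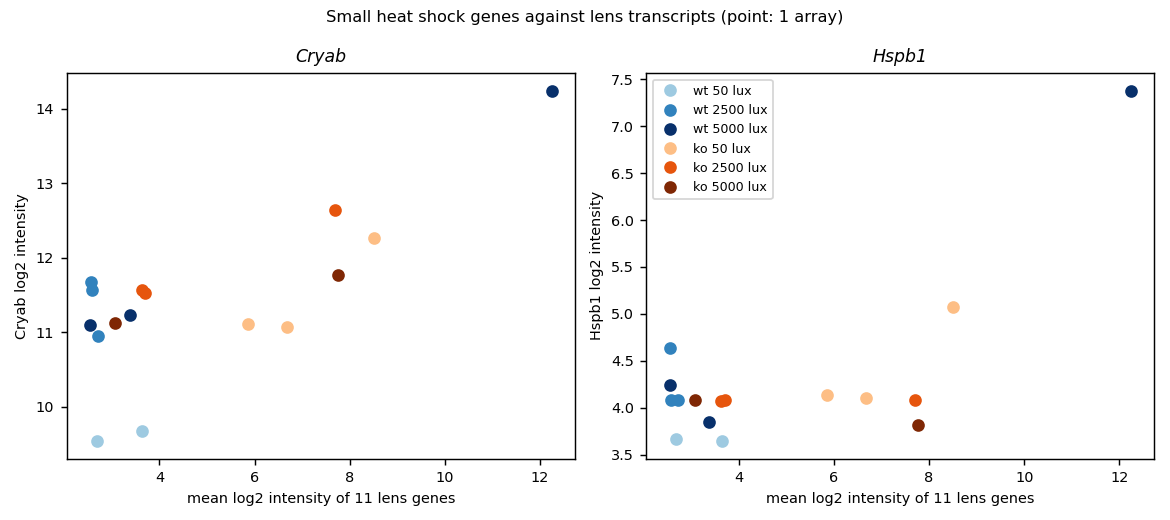
Log2 intensity of Cryab and Hspb1 (vertical axes) against the mean log2 intensity of 11 lens genes (horizontal axis) on each of 16 arrays, coloured by genotype and light dose. The array at 12.25 on the lens axis holds the highest value of both genes, and among arrays below 4 on that axis Cryab is lowest on the 2 wild-type arrays at 50 lux.

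Bag3, the co-chaperone that couples Hsp70 and small heat shock proteins to selective autophagy, rose in both genotypes. It was 4.16 and 4.22 in wild type at 50 lux, 4.88, 4.88 and 5.37 at 2500 lux, and 5.15, 4.88 and 5.30 at 5000 lux. In the knockout it was 4.81, 4.34 and 4.22 at 50 lux, 5.64, 5.61 and 5.54 at 2500 lux, and 4.88 in both arrays at 5000 lux. No bright-light group overlapped its control. The probe set is dim, close to the minimum for testing, and 4 arrays shared 1 exact value near 4.88. Bag3 rose by 0.85 ± 0.19 (SE) in wild type at 2500 lux (adjusted p = 0.0096), by 0.91 ± 0.19 at 5000 lux (0.0064) and by 1.14 ± 0.17 in the knockout at 2500 lux, or 2.21-fold (0.00035). In the knockout at 5000 lux the change was 0.42 ± 0.19 (adjusted p = 0.15), and the step from 2500 to 5000 lux was -0.72 ± 0.19 (adjusted p = 0.17). The knockout call was kept whichever array was left out, with an adjusted p of at most 0.0024. The wild-type call at 2500 lux was lost without 50 lux replicate 1 (0.083) or replicate 2 (0.060) and with only the groups compared (0.066), and that at 5000 lux without 50 lux replicate 1 (0.069).

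By its brightest probe set, Dnajb1 (Hsp40), which hands clients to Hsp70 and stimulates its ATPase, was called higher in wild type. Values there were 9.83 and 9.68 at 50 lux, 10.46, 10.54 and 10.49 at 2500 lux, and 10.73, 10.45 and 10.40 at 5000 lux. In the knockout they were 10.15, 10.08 and 9.99, then 10.55, 10.39 and 10.45, then 10.62 and 10.09. In both genotypes the 2500 lux arrays lay above the controls, and only the knockout at 5000 lux overlapped its control group among the 4 responses. The wild-type change was 0.74 ± 0.15 (SE) at 2500 lux (adjusted p = 0.0058) and 0.77 ± 0.15 at 5000 lux (0.0047). The knockout changes were 0.39 ± 0.13 (adjusted p = 0.058) and 0.28 ± 0.15 (0.22), and the difference between genotypes did not pass at either dose (-0.35 ± 0.20 and -0.49 ± 0.21, adjusted p 0.60 at both). Without wild type 50 lux replicate 2 the wild-type calls were lost (0.072 and 0.061). A second, dimmer probe set of Dnajb1 changed by 0.40 in wild type at 2500 lux (adjusted p = 0.069) and by 0.63 at 5000 lux. In the knockout it changed by 0.51 and 0.28, so at 2500 lux its wild-type change was not the larger.

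The stress-inducible Hsp70 genes were not called higher in any light response. Hspa1a was 8.85 and 8.60 in wild type at 50 lux, 8.60, 8.74 and 8.39 at 2500 lux, and 8.84, 8.70 and 8.29 at 5000 lux. In the knockout it was 8.63, 8.76 and 8.68 at 50 lux, 8.34, 8.03 and 8.15 at 2500 lux, and 8.79 and 8.57 at 5000 lux. The 3 knockout arrays at 2500 lux lay below their controls without overlap, and wild type 5000 lux replicate 3 was as low. Hspa1a fell by 0.51 there (SE 0.15, adjusted p = 0.029). That call was lost without knockout 50 lux replicate 2 (0.074) or 3 (0.067), without knockout 2500 lux replicate 2 (0.11) or 3 (0.085), and with no filter on dim probe sets (0.064). Its other light responses were -0.15 ± 0.17, -0.11 ± 0.17 and -0.01 ± 0.17. The copy Hspa1b, nearly identical to Hspa1a, so that the probe sets may not tell them apart, was 10.32 to 10.68 in the knockout at 50 lux and 9.93 to 10.34 at 2500 lux. Its change of -0.42 ± 0.18 did not pass (adjusted p = 0.12), and its wild-type changes were 0.00 ± 0.20 and 0.06 ± 0.20. These are values of its brightest probe set, and the dimmer ones were lower in wild type. At 2500 and 5000 lux there, 1 changed by -0.26 and -0.11. The dimmest changed by -0.46 and -0.36. On it the wild-type arrays were 9.44 and 9.24 at 50 lux and 8.96, 9.07 and 8.60 at 2500 lux. In the knockout these dimmer probe sets changed by -0.42 and -0.51 at 2500 lux.

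Hsph1 (Hsp110), a nucleotide exchange factor of Hsp70, was called lower in the knockout at 5000 lux. Its knockout values were 9.53, 9.55 and 9.55 at 50 lux, 9.37, 9.25 and 9.27 at 2500 lux, and 9.29 and 8.84 at 5000 lux. Wild-type values were 9.10 and 9.25, then 9.30, 9.33 and 9.33, then 9.47, 9.10 and 9.09. The knockout controls lay above every other array, and the bright-light knockout arrays lay within the wild-type range or, for replicate 2 at 5000 lux, below it. Hsph1 fell by 0.48 at 5000 lux (SE 0.14, adjusted p = 0.047), and the change at 2500 lux was -0.25 ± 0.13 (0.20). Without knockout 5000 lux replicate 2, which was low for all compartments, the change was -0.25 with an adjusted p of 0.43. The call held only when knockout 5000 lux replicate 1 or wild type 5000 lux replicate 1 was left out; the other 14 single-array omissions gave an adjusted p from 0.054 to 0.43. It was also lost with a second probe set (0.28), only the groups compared (0.27), array weights (0.12), no filter on dim probe sets (0.085) and quantile normalization (0.054).

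The other 9 tested cytosolic genes were never called in a light response: Hspa1b, Hspb1, Hspb8, Hspa4, Hspa4l, Hspa8, Hsp90aa1, Dnaja1 and Dnajb4. By their brightest probe sets, the changes ran from -0.49 to 1.50, both in Hspb1, and the smallest adjusted p was 0.081, in Hspa4l. Dimmer probe sets differed. In wild type at 5000 lux those of Hspa4 changed by -1.29 to 0.50 and those of Hspa8 by -0.055 to 1.08. In the knockout at 5000 lux those of Hspa4l changed by 0.03 to 0.44, against -0.18 on the brightest. Hspa8, the constitutive Hsp70, was 13.23 to 13.71 over the 16 arrays, and its probe set is of a type that may detect related sequences. Hsp90aa1 was 13.86 to 14.15.

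Among the mitochondrial genes, Hspd1 and Hspe1 encode the chaperonin Hsp60 and its lid Hsp10, and Hspa9 the mitochondrial Hsp70. Their changes ran from -0.17 in Hspd1 to 0.34 in Hspe1, and 0 of 3 were called by limma in any light response, with 1 at an unadjusted p under 0.05 in wild type at 2500 lux and 2 in the knockout at 2500 lux. The smallest adjusted p was 0.084, in Hspe1. On the per-array scale, knockout arrays at 2500 lux were at 0.08 to 0.26 for this compartment, against -0.18 to -0.03 in their controls.

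**Figure D4:**
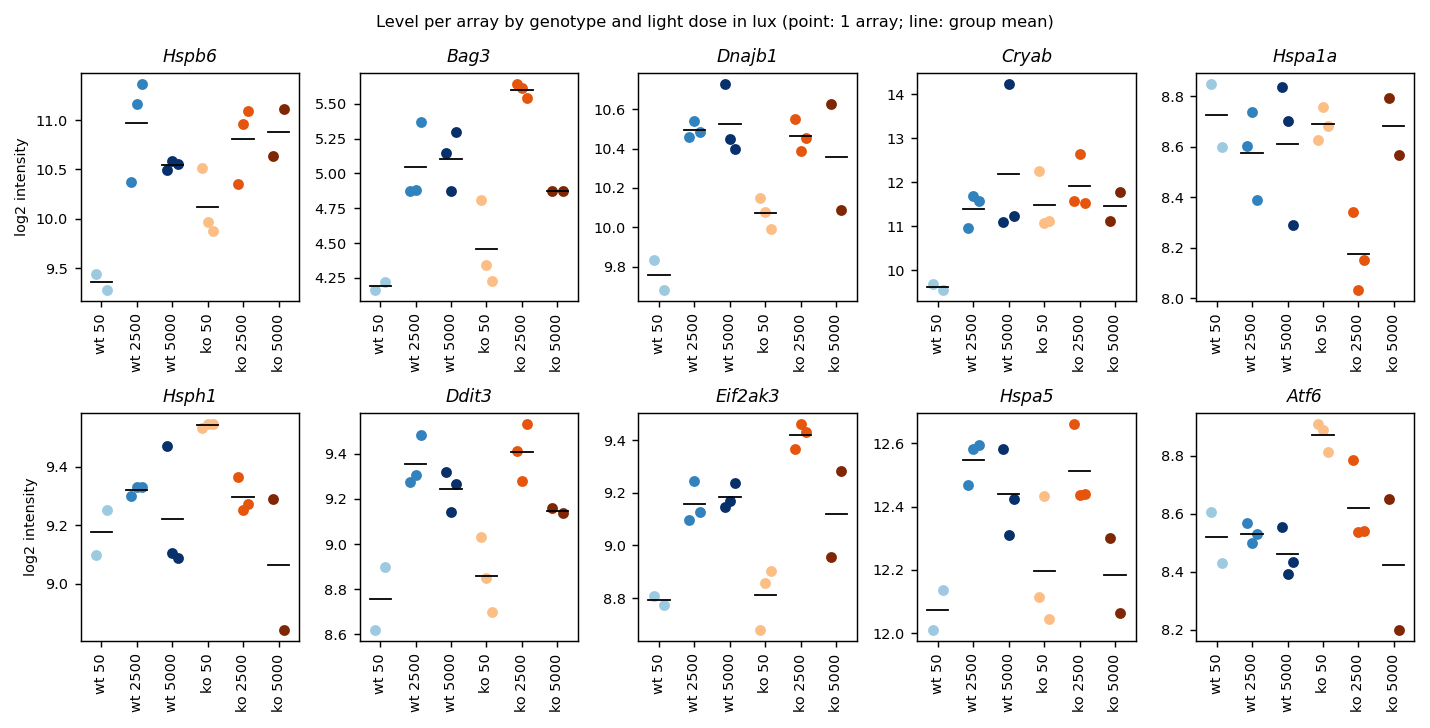
Log2 intensity (vertical axes, 1 per gene) of the 10 genes called in at least 1 light response, by genotype and light dose in lux; points are arrays and lines group means. In wild type the bright-light arrays of Hspb6, Bag3, Dnajb1, Ddit3, Eif2ak3 and Hspa5 all sit above both controls, and Hsph1 and Atf6 are highest in the knockout at 50 lux.

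Of the ER sensors, Eif2ak3 (PERK), the kinase that slows translation by phosphorylating eIF2alpha, rose. It was 8.81 and 8.77 in wild type at 50 lux, 9.10, 9.24 and 9.13 at 2500 lux, and 9.15, 9.17 and 9.24 at 5000 lux. In the knockout it was 8.68, 8.86 and 8.90, then 9.37, 9.46 and 9.43, then 8.95 and 9.28. All bright-light arrays lay above the controls of their genotype. The change was 0.61 ± 0.10 (SE) in the knockout at 2500 lux (1.52-fold, adjusted p = 0.0010), 0.39 ± 0.11 in wild type at 5000 lux (0.045), 0.36 ± 0.11 in wild type at 2500 lux (0.058) and 0.31 ± 0.11 in the knockout at 5000 lux (0.098). The knockout call at 2500 lux was kept whichever array was left out, with an adjusted p of at most 0.0063. The wild-type call held only without wild type 2500 lux replicate 2, knockout 50 lux replicate 1 or 3, or either knockout 5000 lux array; the other 11 omissions gave 0.053 to 0.20, the highest without wild type 50 lux replicate 2. It was also lost with each array centred on its median (0.077), after quantile normalization (0.064) and with only the groups compared (0.065).

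Atf6, the membrane-bound factor cut in the Golgi to release its active part, was highest in the knockout controls. It was 8.91, 8.89 and 8.81 there, 8.79, 8.54 and 8.54 at 2500 lux and 8.65 and 8.20 at 5000 lux. Wild-type values were 8.61 and 8.43, then 8.57, 8.50 and 8.53, then 8.56, 8.39 and 8.43, with all groups overlapping. In the knockout neither bright-light group overlapped its controls. Atf6 fell by 0.45 at 5000 lux (SE 0.13, adjusted p = 0.048), and at 2500 lux the change was -0.25 ± 0.12 (0.17). The call held only without knockout 2500 lux replicate 1 or knockout 5000 lux replicate 1; the other 14 omissions gave 0.052 to 0.46, the highest without knockout 5000 lux replicate 2, where the change was -0.22. It was also lost with only the groups compared (0.29), a second probe set (0.26), array weights (0.13) and no filter on dim probe sets (0.079). Ern1, the sensor IRE1, was not called in any response.

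Ddit3 (CHOP), the factor that links lasting ER stress to cell death, rose in 3 of the 4 responses. It was 8.62 and 8.90 in wild type at 50 lux, 9.27, 9.30 and 9.48 at 2500 lux, and 9.32, 9.14 and 9.26 at 5000 lux. In the knockout it was 9.03, 8.85 and 8.70, then 9.41, 9.28 and 9.53, then 9.16 and 9.14. All bright-light arrays lay above the controls of their genotype. Ddit3 rose by 0.60 ± 0.13 (SE) in wild type at 2500 lux (1.51-fold, adjusted p = 0.0098), by 0.48 ± 0.13 at 5000 lux (0.032) and by 0.55 ± 0.12 in the knockout at 2500 lux (0.0052). In the knockout at 5000 lux the change was 0.29 ± 0.13 (0.16). The knockout call was kept whichever array was left out. The wild-type calls were lost without wild type 50 lux replicate 1 (0.15 at 2500 lux and 0.33 at 5000 lux), and that at 5000 lux also without wild type 5000 lux replicate 1 (0.088) or 3 (0.093), with the replicate block (0.051) and with arrays centred on their medians (0.053). With only the groups compared they were 0.078 and 0.091.

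Atf4 and Xbp1, the factors next to Ddit3 in the PERK and IRE1 branches, were not called. Atf4 was 10.85 and 10.80 in wild type at 50 lux, 10.81 to 11.30 at 2500 lux and 11.08 to 11.32 at 5000 lux, and 10.75 to 10.99, 10.96 to 11.20 and 11.13 to 11.24 in the knockout. Its largest change was 0.37 ± 0.15 (SE) in wild type at 5000 lux (adjusted p = 0.13). These are values of its brightest probe set (mean 11.05). The second (mean 10.86) changed by -0.02 and 0.33 in wild type and by -0.18 and 0.07 in the knockout, at 2500 and 5000 lux. Xbp1 ranged from 10.60 to 11.24 over all arrays, with changes from 0.09 to 0.23 and adjusted p from 0.27 to 0.71. ATF4 is controlled largely through translation of its mRNA and XBP1 through splicing, and neither was measured here. Trib3, a target of CHOP, had an exact value of 4.44 on 10 arrays, and its largest change was -0.38 ± 0.15 in wild type at 2500 lux (adjusted p = 0.12).

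Hspa5 (BiP), the main ER Hsp70 and the usual reporter of the response, was called higher by its brightest probe set in 1 of the 4 responses. It was 12.01 and 12.14 in wild type at 50 lux, 12.47, 12.58 and 12.59 at 2500 lux, and 12.58, 12.31 and 12.42 at 5000 lux. In the knockout it was 12.11, 12.43 and 12.05, then 12.66, 12.44 and 12.44, then 12.30 and 12.06. Only the knockout groups at 50 and 5000 lux overlapped. The change was 0.48 ± 0.14 (SE) in wild type at 2500 lux (1.39-fold, adjusted p = 0.042), 0.37 ± 0.14 at 5000 lux (0.12), 0.32 ± 0.12 in the knockout at 2500 lux (0.095) and -0.02 ± 0.14 at 5000 lux (0.96). The call was lost without wild type 50 lux replicate 1 (0.26) or 2 (0.12), wild type 2500 lux replicate 1 (0.051), 2 (0.095) or 3 (0.11), wild type 5000 lux replicate 3 (0.059) or knockout 2500 lux replicate 2 (0.057) or 3 (0.058). A second probe set of Hspa5 changed by 0.23 in wild type at 2500 lux (adjusted p = 0.39). It changed by 0.27 in wild type at 5000 lux, and by 0.42 and -0.07 in the knockout at 2500 and 5000 lux. The call was also lost with no filter on dim probe sets (0.066), with arrays centred on their medians (0.064) and with only the groups compared (0.076).

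The other 5 genes with the ER stress element, Hsp90b1, Calr, Canx, Creld2 and Dnajc3, were not called with Hspa5. By limma 0 of their 20 light-response values passed, 0 had an unadjusted p under 0.05, and the changes ran from -0.26 to 0.30. These are values of the brightest probe sets, and dimmer ones of Dnajc3 went both ways. In wild type and then the knockout, each at 2500 and 5000 lux, 1 changed by 0.70, 0.53, 0.52 and -0.04. Another changed by -0.45, -0.34, -0.105 and -0.51. The second probe set of Hsp90b1 changed by 0.02 and 0.06 in wild type and by 0.52 and 0.40 in the knockout. Of the 16 ER genes never called, changes ran from -0.57 to 1.18, both in Sdf2l1, a dim probe set with values from 3.84 to 6.17. The smallest adjusted p was 0.057, in Manf, a secreted ER protein, at a change of 0.37 ± 0.13 (SE) in the knockout at 2500 lux. Edem1, Sel1l and Herpud1, of ER-associated degradation, and Ppp1r15a (GADD34), which reverses the PERK signal, were among the 16. In the knockout, dimmer probe sets of Sel1l changed by 0.04 to 0.73 at 2500 lux and by -0.01 to 0.94 at 5000 lux. The brightest changed by -0.09 and -0.19.

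Differences between genotypes and between the 2 brighter doses did not pass for any of the 38 genes. By limma 0 were called between 5000 and 2500 lux in wild type, where 0% of all genes were called and 2 of the 38 had an unadjusted p under 0.05. In the knockout step 0 were called, against 0.119% of all genes, with 6 at an unadjusted p under 0.05, among them Bag3 and Hspa1a (0.51 ± 0.17 SE, adjusted p = 0.26). Between genotypes 0 were called at 50, 2500 and 5000 lux, against 0.403%, 0.137% and 0.00916% of all genes, with 5, 3 and 1 at an unadjusted p under 0.05. In the interaction 0 were called, against 0.0641% at 2500 lux and 0.0366% at 5000 lux, with 1 and 4. The lowest unadjusted p for genotype at 2500 lux was that of Bag3, higher in the knockout by 0.55 ± 0.17 (adjusted p = 0.54). A call in only 1 genotype therefore does not show a difference between genotypes. With 2 or 3 arrays per group, these tests do not show that there is none either.

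At 50 lux, many genes were higher in all 3 knockout arrays than in both wild-type arrays, without passing the test. This held for 16 of the 38 genes (42.1%), against 29.1% of all genes tested. It held for 8 of 15 cytosolic genes (Hspa8, Hsph1, Hspb1, Hspb6, Cryab, Dnajb1, Dnajb4 and Bag3), for 7 of 20 ER genes (Calr, Canx, Dnajc3, Sdf2l1, Sel1l, Atf6 and Ppp1r15a) and for Hspd1. The reverse held for 1, Hsp90b1, against 7.3% of all genes. The median difference was 0.19 for cytosolic and 0.11 for ER genes, beside 0.12 over all genes tested, so much of the shift was shared by all genes. The largest were Cryab at 1.87 ± 0.74 (SE) and Hspb6 at 0.76 ± 0.29, with adjusted p of 0.28 and 0.27. All 3 knockout controls carried more lens transcripts (means of 5.86 to 8.50) than the wild-type controls (3.64 on replicate 1 and 2.69 on replicate 2). Wild-type replicate 1 was not free of them: the lens gene Cryaa was 5.62 on it and 2.805 on replicate 2. In the knockout controls Cryaa was 9.70 to 11.46. The part of lens transcripts in the 16 genes was not tested.

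Markers of several cell types also changed with light. The mean of the 6 Müller glia markers was 10.48 on both wild-type arrays at 50 lux, 10.56 to 10.73 in the knockout at 50 lux and 10.91 to 11.09 on the bright-light arrays. Individual markers went both ways: in wild type 3 rose and 2 fell at each dose, and in the knockout 2 rose and 2 fell. Gfap, the glial stress marker, was 5.09 on both wild-type controls, 5.99 to 6.56 in the knockout controls and 7.09 to 8.50 after brighter light. Of 5 tested rod markers, 3 fell in each response and 5 in the knockout at 2500 lux, and 0 rose. Of the 6 microglia and macrophage markers 3 were tested: Cd68 rose in all 4 responses and Csf1r fell in the knockout at 2500 lux. Cd68 was 2.21 to 3.27 on the control arrays, below the log2 minimum of 4, and passed the filter only through bright-light arrays. Aif1, Itgam and Ptprc were below the minimum on all arrays. Of 4 tested blood and endothelium markers, Hba-a2 and Kdr rose in all 4 responses. Hba-a2 was 2.95 to 3.23 on the control arrays and at most 4.13 after brighter light, so its rise also rests on values near background. Of 5 tested inner retina markers, limma called 0 in wild type, with 0 at 2500 lux and 3 at 5000 lux at an unadjusted p under 0.05, while 2 fell in the knockout at 2500 lux and 3 at 5000 lux. Although the retina was dissected free of pigment epithelium, 7 of its 9 markers were tested, with means of 8.23 to 8.76 in wild type at 50 lux and 6.84 to 7.26 at 5000 lux, where 5 fell; Best1 and Tyr were below the minimum on all arrays. The part of cell composition in the changes of the heat shock and ER genes was not tested.

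Other genes of the same pathways, from a list of related chaperones and regulators outside the 42, are given by their counts, to be read beside the shares of all genes given above. Of 35 other ER genes tested, 8 rose and 1 fell in wild type at 2500 lux, 6 and 0 at 5000 lux, and 5 and 1, then 4 and 0, in the knockout. The shares that rose were 22.9%, 17.1%, 14.3% and 11.4%, against 8.93%, 7.56%, 8.87% and 4.6% of all genes. Of 32 other cytosolic genes, 0 rose and 2 fell, then 1 and 2, in wild type, and 1 and 5, then 0 and 5, in the knockout. The shares that fell were 6.25% and 6.25% in wild type and 15.6% and 15.6% in the knockout, against 5.13%, 5.27%, 13.5% and 7.81% of all genes, close to them in the first 3 responses. Of the genes listed with the ER, those that rose in all 4 responses were Nupr1, Atf3, Cebpb and Wfs1. The first 3 are transcription regulators induced by many stresses and not ER proteins, and Wfs1 encodes an ER membrane protein (wolframin). These regulators count in each of the 4 ER shares, and in the knockout at 5000 lux they and Wfs1 were all of the calls. The gene of the cytosolic list that rose was Serpinh1, which encodes an ER chaperone. The shares therefore describe the lists and not the compartments.

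Nupr1 was 3.17 and 2.97 in wild type at 50 lux and 7.58 to 8.94 after brighter light, and 4.23 to 5.82 and 8.18 to 9.38 in the knockout. Its wild-type controls lay below the log2 minimum of 4, so the wild-type changes of 5.25 and 5.62 rest on values near background, and the knockout changes were 4.21 and 3.28. Wfs1 was 7.70 to 7.98 on the 5 control arrays and 8.33 to 9.28 on the 11 others, with changes of 1.05 ± 0.18 (SE), 0.74 ± 0.18, 1.30 ± 0.16 and 0.70 ± 0.18 and adjusted p of 0.0019, 0.018, 8.9e-05 and 0.025. Cebpb changed by 2.15, 2.22, 2.05 and 1.35. It had the same exact value, 6.98, on both knockout arrays at 5000 lux and on wild type 5000 lux replicate 2. Pdia6, a disulfide isomerase of the ER, rose by 0.70, 0.68 and 0.60 in the first 3 responses.

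Of the other cytosolic genes, Dnaja4, an Hsp40, was lower in all 4 responses, with log2 changes of -0.78, -0.78, -1.07 and -0.58 and adjusted p from 2.4e-05 to 0.012. Its values were 8.65 to 8.88 on the 5 control arrays and 7.52 to 8.17 on the 11 others, without overlap. Hspa12a, a distant Hsp70 relative, was lower in all 4, with log2 changes from -0.52 to -0.42 and values of 9.72 to 9.89 at 50 lux and 9.13 to 9.42 above it. Serpinh1 (Hsp47), an ER chaperone of collagen listed here with the heat shock genes, rose by 0.86 ± 0.21 (SE) in wild type at 5000 lux and by 1.03 ± 0.18 in the knockout at 2500 lux (adjusted p 0.016 and 0.0015). Among 8 other mitochondrial genes, Afg3l2, a subunit of an inner-membrane protease, rose in all 4 by 0.82, 0.90, 0.73 and 0.59 (adjusted p from 0.0023 to 0.029), and no other was called.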

How the data were processed

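Values were the authors' deposited linear intensities of 45037 Affymetrix probe sets on 16 arrays, made with GCRMA per the submitters' processing notes. The GCRMA release and options were not named in these sources. GCRMA corrects the background by sequence and forces all arrays to a common distribution, so small shared shifts can be lost. The values were taken to log2. Probe sets were named from the platform annotation table (34945 with 1 symbol, 932 with several, 9160 with none), and none with several symbols was used.

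The 23320 probe sets with 2 or more arrays over log2 4, an intensity of 16, were fitted in limma 3.58.1 under R 4.3.3 as a model of 6 group means over all 16 arrays, with 10 residual degrees of freedom. Contrasts were moderated with eBayes and p-values adjusted by Benjamini-Hochberg over all probe sets tested. The fit pools the spread over groups of 2 or 3 arrays, and that number limits the precision. The script was tested on simulated data.

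The genes, their compartments and the lists of other pathway and marker genes were chosen with earlier results of these data known, so counts are descriptions. Named with all values were genes called in any comparison, with Hspa1a, Hspa1b, Hspb1, Atf4 and Xbp1; other pathway genes were named by their calls after their values were seen. Promoter sequences came from RefSeq, GRCm38.p6. Alternatives covered the filter, normalization, centring, floor, variance model, array weights, samples fitted, replicate block, probe set and each array left out.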

Additional observations from a re-analysis of the deposited data

How the results depend on the processing

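Of the 17 gene calls, 4 were kept whichever of the 16 arrays was left out (Hspb6 in wild type at 2500 lux, and Bag3, Ddit3 and Eif2ak3 in the knockout at 2500 lux), 13 were lost at least once, and 0 changed direction under any alternative run. Leaving out 1 array gave 2 to 6 called genes in wild type at 2500 lux (5 with all arrays), 1 to 6 at 5000 lux (6), 3 to 7 in the knockout at 2500 lux (4) and 0 to 3 at 5000 lux (2). Other settings moved counts by over 1.5 times as follows. With only the arrays of the groups compared in the fit, the wild-type counts were 2 and 3 and the last knockout count 0. With the second brightest probe set they were 3 in wild type at 2500 lux and 7 and 0 in the knockout. Genes with no second tested probe set kept their only one there, among them Hspb6, Bag3, Ddit3, Eif2ak3 and Hspa1a. Calls of those genes could not change in that setting. With array weights they were 11 in wild type at 5000 lux and 12 and 0 in the knockout. In the knockout at 5000 lux the count was 1 after quantile normalization, 0 with no filter on dim probe sets and 0 without both wild type and knockout 5000 lux replicate 2, a setting chosen after seeing the data. The causes were not tested. The 7 dose-step, genotype and interaction comparisons gave 0 under every setting. The replicate number was entered as a replicate block, which gave 6, 7, 6 and 2 called genes and lost 1 call (Ddit3 in wild type at 5000 lux). The numbers did not pair the arrays by the rule used: 36 same-numbered pairs had correlations of residuals from -0.24 to 0.69 (median 0.18), against a median of -0.11 in 70 other pairs, although 13 of 16 arrays correlated best with an array of their own number. Precision is limited by 2 arrays in each of the wild-type 50 lux and knockout 5000 lux groups.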
